A study of Mus musculus with 6 samples.

Results

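The electrical activity of the heart depends on channels that let ions cross the membrane of a cardiomyocyte and on connexins, the proteins that join neighbouring cells through gap junctions. RNA levels of 9 such genes were examined here, chosen by name: 6 pore subunits of potassium and pacemaker channels (Kcnj2, Kcnj3, Kcnq1, Kcnh2, Kcnd2 and Hcn4), Kcnip2, an auxiliary subunit, and the connexin genes Gja1 and Gja5. They are 9 of the 36047 genes to which the transcripts of the libraries were joined, and all 9 passed the filter on low counts. The tissue was the infarct area of the heart of female C57BL6 mice, taken 48 h after ischemia/reperfusion (I/R), in which the left anterior descending artery is tied off and then reopened. Of these mice, 3 received LGK-974 (LGK974 in the sample labels) by oral gavage after surgery and once daily from then on. LGK-974 inhibits Porcupine, the enzyme that lipid-modifies Wnt proteins so that they can be secreted. The other 3 mice, the controls, received the DMSO vehicle in citrate buffer after the same surgery. All mice were labelled as 12 weeks old and of the same strain, with no allele named, and all had undergone I/R, so no uninjured heart enters the comparison, which asks how the infarcted heart differs when Wnt secretion is blocked.

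In the working myocardium, potassium channels that open in sequence return the membrane to its resting voltage after each beat. Transient outward channels act first, delayed rectifiers complete the repolarization, and inward rectifiers hold the resting potential. Pacemaker channels carry an inward current at negative voltages and drive the beat in the sinus node, while connexins form the pores through which the impulse spreads from cell to cell. After myocardial infarction, lower potassium currents and a rearrangement of gap junctions are well known in the border of the scar, where they are linked to arrhythmia.

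The 6 pore genes all encode a selectivity filter, the narrowest part of the pore, though its codons differ between them. In potassium channels the filter lets potassium pass and holds back sodium. Pacemaker channels have a similar filter but pass both ions. The stretch is shown because it sets the 6 pore genes apart from Kcnip2 and the connexins. The sequences are coding bases of the mouse reference GRCm38, taken with the GENCODE annotation, each 45 bases long and written 5′ to 3′ on the coding strand, with the 3 codons of the filter in capitals.
Kcnj2: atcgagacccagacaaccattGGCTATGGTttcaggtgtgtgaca
Kcnj3: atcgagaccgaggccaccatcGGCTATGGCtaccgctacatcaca
Kcnq1: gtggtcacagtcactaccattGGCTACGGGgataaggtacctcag
Kcnh2: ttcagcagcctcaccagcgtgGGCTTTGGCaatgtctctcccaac
Kcnd2: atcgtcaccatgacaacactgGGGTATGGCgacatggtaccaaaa
Hcn4: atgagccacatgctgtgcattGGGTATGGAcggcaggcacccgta

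The stretch of Kcnj2 lies in exon 2 at chr11:111072192-111072236 on the plus strand, and that of Kcnj3 in exon 2 at chr2:55437612-55437656 on the plus strand. In Kcnh2 it lies in exon 7 at chr5:24325540-24325584 on the minus strand, and in Hcn4 in exon 4 at chr9:58855570-58855614 on the plus strand. An intron interrupts it in Kcnq1, where it spans exons 6 and 7 within chr7:143184540-143191461, and in Kcnd2, where it spans exons 1 and 2 within chr6:21217391-21714156, both on the plus strand. The middle codon of the filter is a phenylalanine codon in Kcnh2 and a tyrosine codon in the other 5 genes. The filter signature, searched as the 5 residues from threonine, serine or cysteine through to the second glycine in the translated coding strand, was found in 173 of 21739 mouse genes (0.796%). It was found in none of Kcnip2, Gja1 and Gja5, which form no potassium-selective pore.

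Each library held 41579787 to 80398211 estimated counts, of which mitochondrial genes held 28.2 to 53.7%. DMSO replicate 1 stood apart from the other libraries. Over 1780 genes of olfactory, vomeronasal and taste receptor families, which heart tissue is not known to use, its median was 28.2 estimated counts per kb of annotated exons, against 1.66 and 9.69 in the other DMSO libraries and 0.766 to 8.98 in the LGK-974 libraries. Results are therefore also given without it, and beside the count that this background level would place on each gene. Levels within a gene are in CPM, estimated counts relative to the library size as scaled by the TMM factors of edgeR, and levels between genes in TPM, which is corrected for transcript length.

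With the quasi-likelihood test of edgeR, 0 of the 9 genes reached an adjusted p-value under 0.05 (Benjamini-Hochberg over 20094 genes), as did 0 genes of the whole transcriptome (0%), and the lowest adjusted p-value of the 9 was 0.368. Taking the p-value before adjustment, 4 of the 9 were under 0.05 and lower with LGK-974 (Kcnj2, Kcnj3, Kcnh2 and Hcn4), against 7.18% of all tested genes, and 0 were higher, against 6.26%. In 2 of the 9, Kcnj2 and Kcnh2, every LGK-974 mouse lay below every DMSO mouse (7.27% of all tested genes), and in 0 every LGK-974 mouse lay above (10.7%). The log2 fold change was below 0 in 7 of the 9, against 59.5% of all tested genes. Its median was −0.57 over the 9 genes and −0.62 over the 7 potassium and pacemaker channel genes, beside −0.13 over all tested genes. DESeq2, as an alternative, also called 0 of the 9 at an adjusted p-value under 0.05, against 0.432% of genes lower and 0.985% higher. The count of 4 was 2 with library sizes not rescaled and 2 on counts scaled from TPM. It was also 2 without LGK-974 replicate 1, 1 without LGK-974 replicate 3, and 0 without DMSO replicate 2 or DMSO replicate 3, and it was 4 without DMSO replicate 1. Counting both directions, 2373 of 20094 genes passed without rescaling and 2423 of 20155 on counts scaled from TPM. Of 20094 genes, 1886 passed without LGK-974 replicate 1, 844 without LGK-974 replicate 3 and 2013 without DMSO replicate 1. Without DMSO replicate 2 it was 2354 genes, and without DMSO replicate 3 4641. The count of 2 genes without overlap was 0 without library rescaling or without DMSO replicate 3, and 1 without DMSO replicate 2. The share of all genes without overlap in these settings is not reported here.

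**Figure D1:**
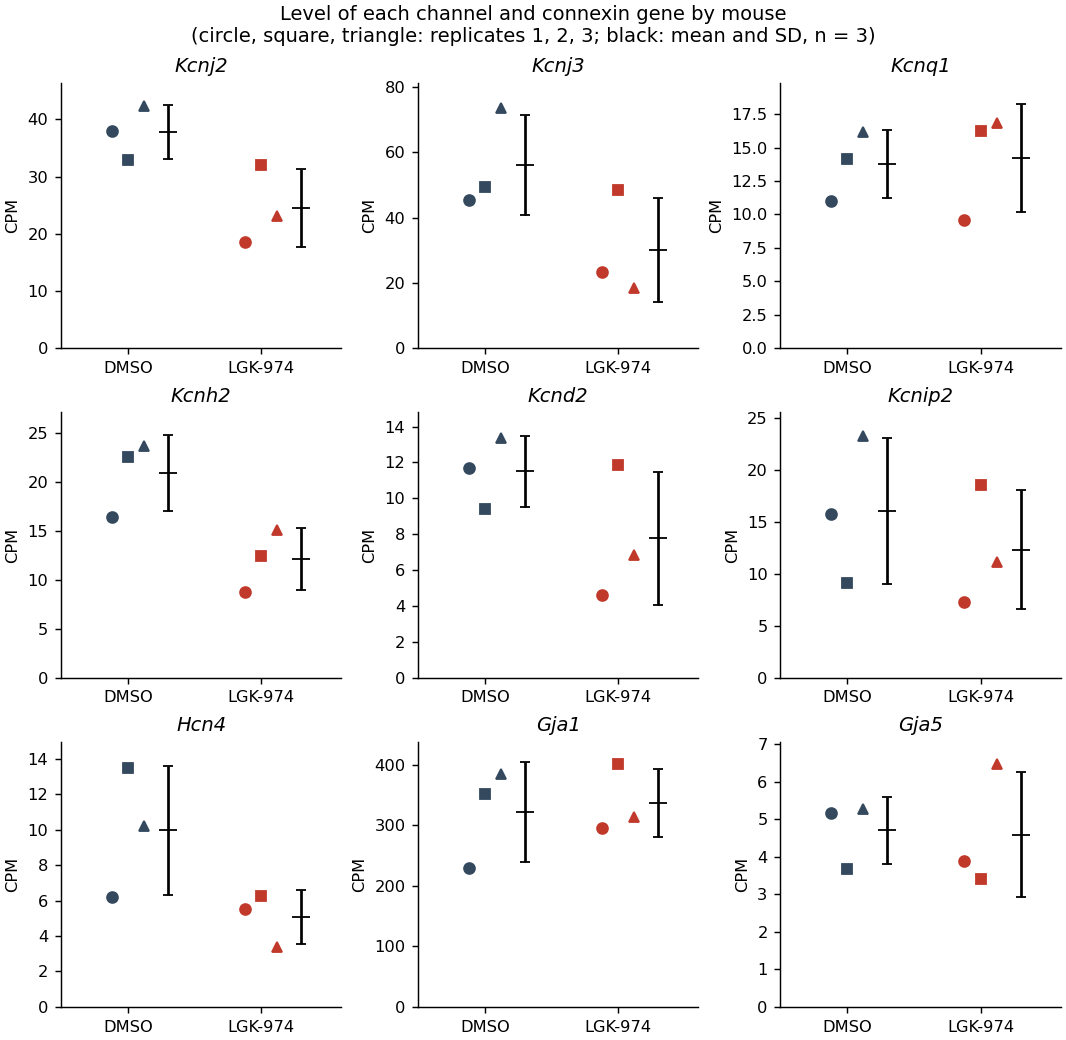
Level of each of the 9 genes in CPM (y axis, from 0) in the 3 DMSO mice (dark blue) and the 3 LGK-974 mice (red), with circles, squares and triangles for replicates 1, 2 and 3 and black bars for the mean and SD. The LGK-974 mice lie below the DMSO mice without overlap in Kcnj2 and Kcnh2, while the groups overlap in the other 7 genes.

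Among the inward rectifiers, Kcnj2 encodes the main channel of the resting potential in ventricular cardiomyocytes. Its gene lies on chromosome 11 from 111066164 to 111076821 on the plus strand of GRCm38, the build of all positions given here, and is annotated as protein-coding, as are the other 8. Kcnj2 was measured at 18.6, 32.0 and 23.1 CPM in LGK-974 replicates 1, 2 and 3, and at 38.1, 32.9 and 42.3 CPM in DMSO replicates 1, 2 and 3. The groups did not overlap, but LGK-974 replicate 2 and DMSO replicate 2 lay next to each other. The means were 24.6 ± 6.79 CPM with LGK-974 and 37.8 ± 4.74 CPM with DMSO (SD, n = 3 each), and the log2 fold change was −0.62 (SE 0.220, unadjusted p = 0.0234 and adjusted p = 0.368 by edgeR). It stayed between −0.79 and −0.41 with each mouse left out. On the TPM scale the groups overlapped, with 3.49, 4.27 and 7.004 TPM with LGK-974 and 4.74, 5.68 and 7.67 TPM with DMSO.

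Kcnj3 encodes a subunit of the G protein-gated inward rectifier, which slows the heart on vagal stimulation and is best known from the sinus node and atria. The gene lies on chromosome 2 from 55435970 to 55598145 on the plus strand. Its levels were 23.4, 48.4 and 18.5 CPM with LGK-974 and 45.5, 49.3 and 73.7 CPM with DMSO. LGK-974 replicate 2 lay within the range of the DMSO mice, and the other LGK-974 mice lay below it. The means of 30.1 ± 16.1 and 56.2 ± 15.3 CPM (SD, n = 3 each) gave a log2 fold change of −0.90 (SE 0.372, unadjusted p = 0.0429 and adjusted p = 0.368 by edgeR). Its value was −1.37 without LGK-974 replicate 2 and −0.54 without DMSO replicate 3. Exons of Kcnj3 share 1621 bases with Gm26794 on the other strand, so reads of either can be counted for Kcnj3 if strand was not used.

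Of 6 atrial markers, Myl7, Sln and Bmp10 had too few counts to be tested, with group means of 0.0330 and 0.661 CPM for Bmp10 and of 0.114 and 0.0902 CPM for Myl7, which was at 0 in LGK-974 replicate 3 and DMSO replicate 3. The other 3 were higher on average with LGK-974, and the list summed to 1130 to 1459 CPM with LGK-974 and 465 to 727 CPM with DMSO. Nearly all of this was Nppa, which stressed ventricular cardiomyocytes also express, at means of 1281 and 625 CPM. Dkk3 was at means of 4.09 CPM with LGK-974 and 2.34 CPM with DMSO, without overlap. Myl4 was at 0.843 and 0.788 CPM, with overlap. Whether the Kcnj3 RNA came from atrial cells was not tested. Over the 6 libraries, the genes whose log2 CPM correlated most with Kcnj3 were Mb, which encodes myoglobin (Pearson r = 0.998), Ppm1l (0.997) and Etfa, which encodes a subunit of electron transfer flavoprotein (0.997). These are descriptions over 6 libraries that share their depth and scaling, and 303 genes exceeded a correlation of 0.95 with Kcnj3.

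Of the delayed rectifiers, Kcnh2 encodes the pore of the rapid component and Kcnq1 that of the slow component, and loss of either gene's function prolongs repolarization in the long QT syndrome. Kcnh2 lies on chromosome 5 from 24319589 to 24351604 on the minus strand. It was measured at 8.79, 12.5 and 15.05 CPM with LGK-974 and at 16.4, 22.6 and 23.6 CPM with DMSO. All LGK-974 mice lay below all DMSO mice, with DMSO replicate 1 closest to them. The means were 12.1 ± 3.15 and 20.9 ± 3.87 CPM (SD, n = 3 each), and the log2 fold change was −0.79 (SE 0.240, unadjusted p = 0.0117 and adjusted p = 0.368 by edgeR). Without DMSO replicate 1 it was −0.92 by edgeR (adjusted p = 0.315) and −0.93 by DESeq2 (adjusted p = 0.0254). On the TPM scale LGK-974 replicate 3 was the highest library at 8.43 TPM, and the groups overlapped.

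Kcnq1 did not differ beyond the spread between mice. The gene lies on chromosome 7 from 143106362 to 143427042 on the plus strand, and its exons share 121 bases with the antisense RNA Kcnq1ot1. Its levels were 9.55, 16.2 and 16.9 CPM with LGK-974 and 11.03, 14.2 and 16.1 CPM with DMSO, with the lowest library of each group being replicate 1. The means of 14.2 ± 4.05 and 13.8 ± 2.57 CPM (SD, n = 3 each) gave a log2 fold change of 0.04 (SE 0.257, unadjusted p = 0.868 and adjusted p = 0.943 by edgeR), and its sign changed when single mice were left out. The TPM ratio of Kcnq1 to Kcnh2 was 1.76, 3.61 and 3.58 with LGK-974 and 2.70, 0.786 and 0.971 with DMSO. Its log2 difference of 1.16 left the groups overlapping (exact two-sided permutation test, p = 0.2, and 0.667 after Benjamini-Hochberg adjustment over 4 pairs), with DMSO replicate 1 the control that reached the treated mice. On transcripts of at least 1000 bases, a choice made after the values were seen, the ratio was 1.63, 1.92 and 1.49 with LGK-974 and 0.962, 0.887 and 0.999 with DMSO. There the groups did not overlap, with a log2 difference of 0.82 (exact two-sided permutation test, p = 0.1, the smallest possible, and 0.4 after adjustment over 4 pairs). In CPM, which is not per length and so compares the groups only, the ratio was 1.09, 1.30 and 1.12 against 0.671, 0.628 and 0.684, again without overlap and with a log2 difference of 0.82 (exact permutation test, p = 0.1).

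The fast transient outward current of the mouse ventricle is carried mainly by Kcnd2, whose surface level and gating depend on the auxiliary subunit Kcnip2. Kcnd2 lies on chromosome 6 from 21215503 to 21729805 on the plus strand and Kcnip2 on chromosome 19 from 45791839 to 45816061 on the minus strand. Kcnd2 was at 4.61, 11.9 and 6.83 CPM with LGK-974 and at 11.7, 9.41 and 13.4 CPM with DMSO. Kcnip2 was at 7.27, 18.6 and 11.1 CPM with LGK-974 and at 15.8, 9.16 and 23.3 CPM with DMSO. In both genes LGK-974 replicate 2 was the highest and LGK-974 replicate 1 the lowest of the treated mice, DMSO replicate 2 was the lowest and DMSO replicate 3 the highest control, and the groups overlapped. The log2 fold changes were −0.57 (SE 0.343, unadjusted p = 0.138 and adjusted p = 0.436 by edgeR) for Kcnd2 and −0.38 (SE 0.417, unadjusted p = 0.385 and adjusted p = 0.645 by edgeR) for Kcnip2. Neither was larger than the spread between mice, and the value of Kcnip2 was 0.11 without DMSO replicate 3. That of Kcnd2 was −0.30 without LGK-974 replicate 1 and −0.95 without LGK-974 replicate 2.

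The ratio of the 2 subunits overlapped between the groups. Kcnip2 TPM exceeded Kcnd2 TPM 4.26-, 3.67- and 3.59-fold with LGK-974 and 3.29-, 2.56- and 4.29-fold with DMSO, a log2 difference of 0.21 (exact two-sided permutation test, p = 0.5), and of 0.028 without DMSO replicate 2. The corresponding ratio of Kcnj3 to Kcnj2 was 1.43, 1.77 and 0.876 with LGK-974 and 1.39, 1.66 and 1.98 with DMSO, a log2 difference of −0.35 (exact two-sided permutation test, p = 0.5), and of −0.064 without LGK-974 replicate 3. With 3 mice against 3, 0.1 is the smallest p-value that such a test can give.

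Hcn4 encodes the main pacemaker channel of the sinus node and is expressed at low level in the adult ventricle. Its gene lies on chromosome 9 from 58823412 to 58863175 on the plus strand. Hcn4 was measured at 5.55, 6.27 and 3.37 CPM with LGK-974 and at 6.21, 13.5 and 10.2 CPM with DMSO. DMSO replicate 1 lay among the LGK-974 mice, and the other DMSO mice lay above them. The means of 5.06 ± 1.51 and 9.96 ± 3.64 CPM (SD, n = 3 each) gave a log2 fold change of −0.98 (SE 0.347, unadjusted p = 0.0234 and adjusted p = 0.368 by edgeR). The value was −0.64 without DMSO replicate 2 and −0.70 without LGK-974 replicate 3. Without DMSO replicate 1 it was −1.20 by edgeR (adjusted p = 0.312) and −1.22 by DESeq2 (adjusted p = 0.0189). By that DESeq2 fit, chosen after the values were seen, 2 of the 9 genes, Hcn4 and Kcnh2, were called lower, against 0.36% of genes, and 0 were called higher, against 2.04%. Of 6 conduction system markers 5 were tested, with 2 above 0 and 3 below, and Isl1 had too few counts. Their summed level was 43.7 to 45.2 CPM with LGK-974 and 51.5 to 63.9 CPM with DMSO, without overlap, of which Irx3, a transcription factor gene, held 23.2 and 34.0 CPM on average. Without Irx3 the sums overlapped, at 19.4 to 23.0 and 22.1 to 26.8 CPM. The part of these markers in the level of Hcn4 was not tested.

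**Figure D2:**
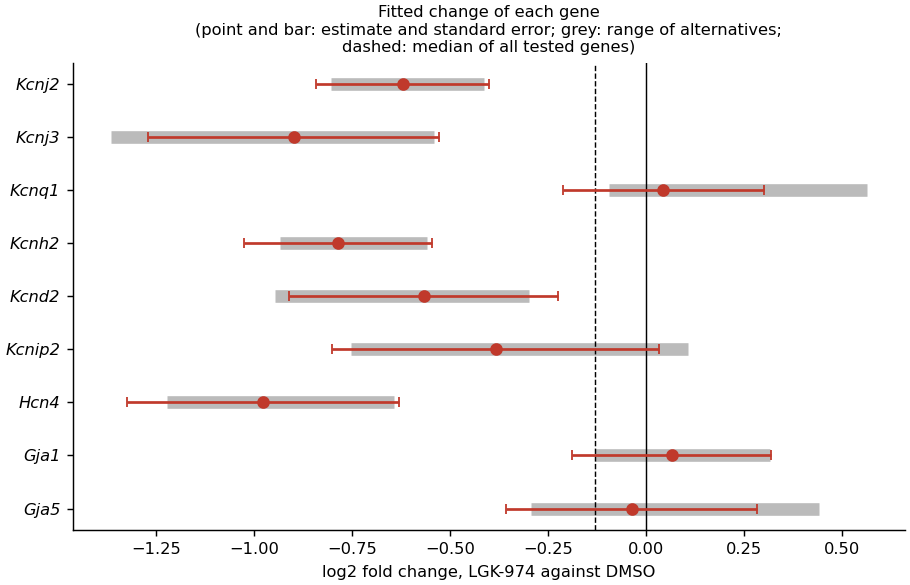
Log2 fold change of each gene, LGK-974 against DMSO (x axis), by edgeR's quasi-likelihood fit, as point and standard error, with the range over 17 alternatives in grey and the median of all tested genes (−0.13) as a dashed line. Kcnj2, Kcnj3, Kcnh2, Kcnd2 and Hcn4 stay below 0 over the whole grey range, and the grey bars of Kcnq1, Kcnip2, Gja1 and Gja5 cross 0.

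Gja1 encodes the connexin of ventricular gap junctions, which fibroblasts, endothelial cells and macrophages also make. Its gene lies on chromosome 10 from 56377330 to 56402513 on the plus strand. Gja1 was at 297, 402 and 314 CPM with LGK-974 and at 229, 353 and 385 CPM with DMSO. The range of the LGK-974 mice lay mostly inside that of the DMSO mice, with DMSO replicate 1 the lowest library of all. The means were 337 ± 56.3 and 322 ± 82.3 CPM (SD, n = 3 each), and the log2 fold change was 0.07 (SE 0.254, unadjusted p = 0.804 and adjusted p = 0.911 by edgeR), with −0.11 without DMSO replicate 1. The genes whose log2 CPM correlated most with Gja1 over the 6 libraries were Prdx6, an antioxidant enzyme gene (Pearson r = 0.993), Oxa1l (0.990) and Ifngr2, a subunit of the interferon gamma receptor (0.989), and 123 genes exceeded 0.95.

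Gja5 encodes the connexin of the atria, the conduction system and arterial endothelium. The gene lies on chromosome 3 from 96904693 to 97077416 on the plus strand, and its exons share 165 bases with Gpr89 on the other strand, which itself was at 6.74 to 10.8 CPM. Gja5 was at 3.88, 3.40 and 6.48 CPM with LGK-974 and at 5.15, 3.68 and 5.28 CPM with DMSO, and LGK-974 replicates 2 and 3 were the lowest and highest libraries of all. The means of 4.58 ± 1.66 and 4.71 ± 0.888 CPM (SD, n = 3 each) gave a log2 fold change of −0.04 (SE 0.321, unadjusted p = 0.912 and adjusted p = 0.964 by edgeR). Its direction turned to 0.27 with library sizes not rescaled. The 6 arterial endothelial markers summed to 38.1 to 47.4 CPM with LGK-974 and 40.0 to 53.4 CPM with DMSO.

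The connexins are related from their first codons on, as the first 45 coding bases show, with the start codon in capitals.
Gja1: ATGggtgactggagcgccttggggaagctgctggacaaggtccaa
Gja5: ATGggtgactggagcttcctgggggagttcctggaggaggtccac

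These bases lie in exon 2 of the transcript Gja1-201 at chr10:56387547-56387591 and in exon 2 of Gja5-201 at chr3:97050629-97050673 (GRCm38, plus strand), and 36 of the 45 are equal. The whole coding part of Gja1-201 has 1146 bases and that of Gja5-201 1074. The TPM ratio of Gja5 to Gja1 was 0.0152, 0.00862 and 0.0223 with LGK-974 and 0.0282, 0.00978 and 0.0161 with DMSO, a log2 difference of −0.20 (exact two-sided permutation test, p = 0.7). The direction of this difference turned to 0.19 without DMSO replicate 1.

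The scaling of the libraries moved the genes by unequal amounts. Kcnj3 went from −0.90 with TMM to −0.83 with library sizes not rescaled, and Gja5 from −0.04 to 0.27. The median log2 fold change of all tested genes was −0.13 with TMM and 0.08 without rescaling. Relative to that median, the values with TMM and without rescaling were −0.49 and −0.53 for Kcnj2, −0.77 and −0.91 for Kcnj3, −0.66 and −0.64 for Kcnh2, and −0.85 and −0.95 for Hcn4. They were −0.44 and −0.51 for Kcnd2, −0.25 and −0.32 for Kcnip2, and 0.17 both times for Kcnq1. For the connexins they were 0.20 and 0.14 for Gja1 and 0.09 and 0.19 for Gja5. Without rescaling, 0 of the 9 genes separated the groups in CPM. The unadjusted p-values by edgeR were then 0.214 for Kcnj2, 0.165 for Kcnh2, 0.0378 for Kcnj3 and 0.0431 for Hcn4.

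The background of DMSO replicate 1 weighed on the genes with few counts. The level of the silent receptor families would place 79.0% of the counts of Gja5 and 69.6% of those of Hcn4 in that library, 31.1% of those of Kcnd2, 26.2% for Kcnq1, 20.9% for Kcnh2 and 15.6% for Kcnip2. For Kcnj2, Kcnj3 and Gja1 it was 10.1%, 8.13% and 3.17%. In DMSO replicate 2 it was 31.4% for Gja5. These shares rest on all annotated exon bases of a gene, 5746 for Gja5 and 10257 for Gja1. The leading transcripts Gja5-201 and Gja1-201 have 3109 and 3071 bases, over which the shares would be lower. In the LGK-974 libraries the highest share was 15.6%, for Gja5 in replicate 1. When this share was subtracted from every library and the fit repeated, all LGK-974 mice lay below all DMSO mice in Kcnj2, Kcnj3 and Kcnh2, with log2 fold changes of −0.80, −1.06 and −0.90 (unadjusted p = 0.00935, 0.0222 and 0.00367, and adjusted p = 0.377 for each, by edgeR). In that fit, 2277 of 17235 tested genes were at an unadjusted p-value under 0.05, counting both directions. The share of all genes without overlap is not reported here for that fit. Hcn4 was then at 2.61 CPM in DMSO replicate 1, below 4.88, 5.56 and 2.95 CPM with LGK-974, while DMSO replicates 2 and 3 were at 12.7 and 9.14 CPM (log2 fold change −0.87, unadjusted p = 0.165 by edgeR).

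**Figure D3:**
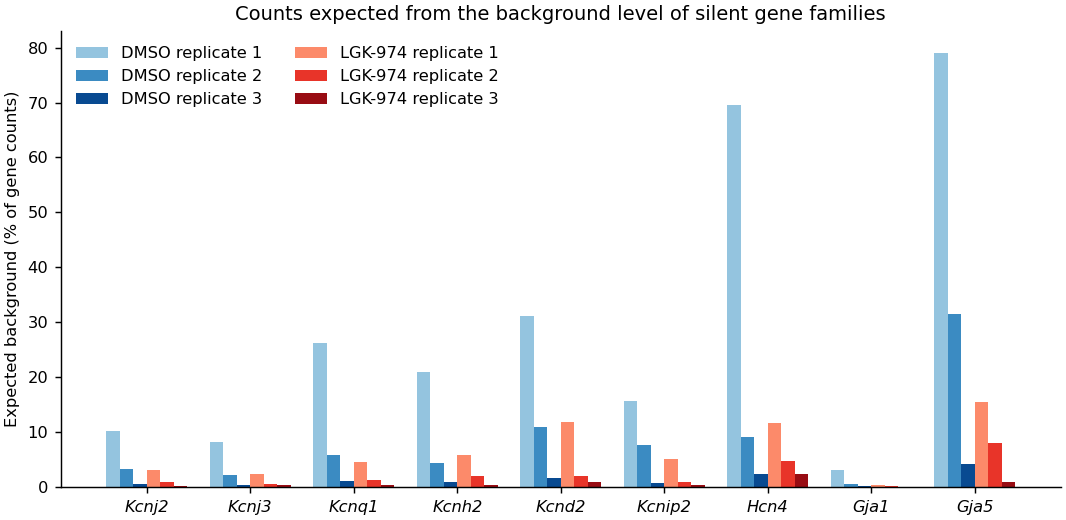
Share of the estimated counts of each gene (y axis, in %) that the median level of 1780 silent receptor genes would place on it, in the 3 DMSO (blue) and 3 LGK-974 (red) libraries. The bars of DMSO replicate 1 are the tallest for every gene and reach 69.6% for Hcn4 and 79.0% for Gja5.

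Markers of the cell types in the tissue were read beside these genes. Of 15 cardiomyocyte markers, 13 had a log2 fold change below 0 and 2 above, with a median of −0.44, and their summed level was 20799 to 29933 CPM with LGK-974 and 26032 to 35506 CPM with DMSO. All 12 leukocyte markers were higher on average with LGK-974, with summed levels of 503 to 656 against 219 to 319 CPM, as were 9 of 10 fibroblast markers, with summed levels of 3232 to 5408 against 1631 to 2370 CPM. The 10 endothelial markers summed to 838 to 913 and 712 to 1041 CPM, and the 8 smooth muscle and pericyte markers to 546 to 668 and 520 to 820 CPM. None of the markers on these lists was at 0 in all libraries. In tissue of mixed cells, fewer cardiomyocytes and less channel RNA per cardiomyocyte cannot be told apart from levels alone.

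Each gene was therefore also set against the summed cardiomyocyte markers of its own library, a ratio that does not depend on library size. Kcnj2 was at 8.96, 10.7 and 10.1 CPM per 10000 CPM of markers with LGK-974 and at 14.6, 10.7 and 11.9 with DMSO. The groups met at 10.7 without overlapping, and the log2 difference of −0.32 had a p-value of 0.1, the smallest that this test can give (exact two-sided permutation test), with a difference of −0.20 without DMSO replicate 1. The difference was −0.30 on TPM and −0.27 on counts less background (exact permutation tests, p = 0.2 for each). With the mean log2 CPM of the markers in place of their sum, it was −0.32 (exact permutation test, p = 0.2). Kcnh2 was at 4.22, 4.16 and 6.58 with LGK-974 and at 6.31, 7.37 and 6.65 with DMSO, so that LGK-974 replicate 3 reached the controls (log2 difference −0.47, exact permutation test, p = 0.2). Kcnj3 was at 11.2, 16.2 and 8.10 against 17.5, 16.1 and 20.8 (log2 difference −0.66, exact permutation test, p = 0.2). For Hcn4 the values were 2.67, 2.09 and 1.47 against 2.38, 4.40 and 2.87 (log2 difference −0.62, exact permutation test, p = 0.2), and on counts less background the difference was −0.09. Kcnd2 and Kcnip2 differed by −0.33 and −0.06 (exact permutation tests, p = 0.4 and 0.9), and both overlapped between the groups.

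Gja1 and Kcnq1 stood higher against the cardiomyocyte markers with LGK-974. Gja1 was at 143, 134 and 137 CPM per 10000 CPM of markers with LGK-974 and at 88.1, 115 and 109 with DMSO. The LGK-974 mice all exceeded the DMSO mice, by a log2 difference of 0.42 (exact two-sided permutation test, p = 0.1), and the difference was 0.30 without DMSO replicate 1. Over all tested genes, 22.5% lay above in the same ratio and 1.58% below, so 1 of 9 above and 1 of 9 below is to be read against those shares. Against the endothelial markers, the log2 difference of Gja1 was 0.07 (exact permutation test, p = 0.6). Kcnq1 was at 4.59, 5.42 and 7.37 against 4.24, 4.63 and 4.54, with a single overlap at LGK-974 replicate 1 (log2 difference 0.35, exact permutation test, p = 0.2). Gja5 differed by 0.25 with overlap (exact permutation test, p = 0.7). After Benjamini-Hochberg adjustment over the 9 genes, the lowest of these p-values from the exact permutation tests was 0.3.

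**Figure D4:**
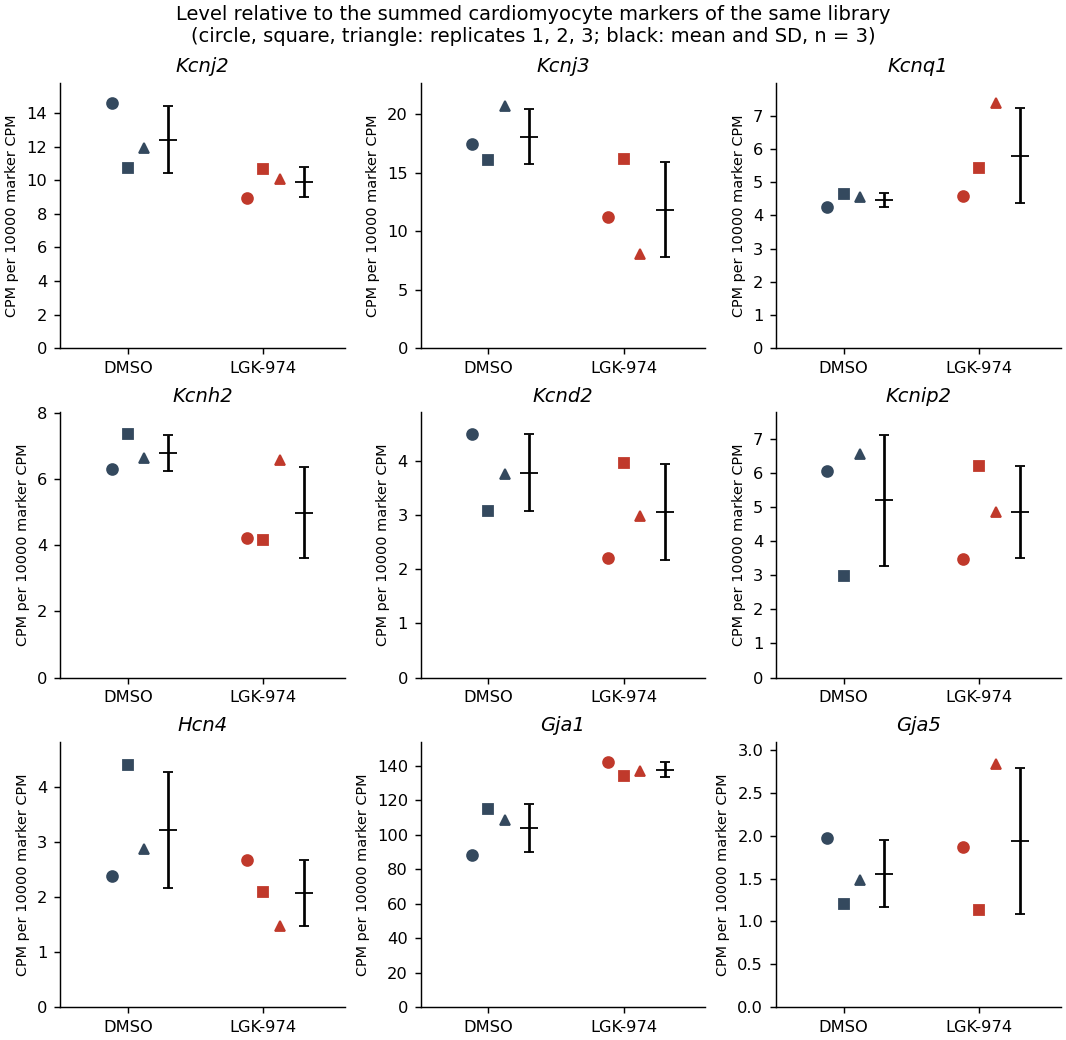
Level of each gene in CPM per 10000 CPM of the 15 summed cardiomyocyte markers of the same library (y axis, from 0), for the 3 DMSO (dark blue) and 3 LGK-974 (red) mice, with the mean and SD in black. Gja1 lies at 134 to 143 with LGK-974 and at 88.1 to 115 with DMSO, and in Kcnj2 the groups meet at 10.7.

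On the TPM scale, which corrects for length, Gja1 was the most abundant of the 9 genes at a mean of 116 TPM over the 6 libraries (55.0 to 184), above the next gene in all 6. It was followed by Kcnq1 at 11.04 TPM, Kcnj3 at 8.31, Kcnip2 at 6.41, Kcnj2 at 5.48 and Kcnh2 at 5.21. Below these came Gja5 at 1.90 TPM, Kcnd2 at 1.77 and Hcn4 at 1.16. Kcnh2 exceeded Gja5 in all 6 libraries. From Kcnq1 to Kcnh2, each gene exceeded the next in 3 to 5 libraries, and from Gja5 to Hcn4 in 3 or 4, so neighbours within these groups did not differ beyond the spread between libraries. The place of Kcnq1 depended on short annotated fragments. When transcripts under 1000 bases were left out, an alternative added after the data were seen, its mean was 5.09 TPM and it came at rank 5, with Kcnj3, Kcnip2 and Kcnj2 above it.

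Several of the genes have more than 1 annotated transcript, between which Kallisto divides reads by estimation. Of Kcnq1 TPM, 11.4 to 74.0% lay on transcripts under 1000 bases. Kcnq1-204, of 196 bases, took 55.0% in DMSO replicate 1 and 33.9% in LGK-974 replicate 2 but 0% in LGK-974 replicate 1 and DMSO replicates 2 and 3. Kcnq1-205, of 182 bases, took 29.8% in LGK-974 replicate 3 and 0% in the other libraries. The full-length Kcnq1-201 was at 2.88, 3.21 and 8.59 TPM with LGK-974 and 2.27, 4.17 and 5.02 TPM with DMSO, with overlap between the groups.

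Kcnh2 is known to form heart channels from a long and a short subunit that begin at different start codons and share the pore. The annotation holds both, as Kcnh2-201 with 3486 coding bases and Kcnh2-202 with 2460, and their last 2354 coding bases are the same. Their first 45 coding bases, in each case from exon 1 of the transcript, differ after the start codon, which is in capitals.
Kcnh2-201: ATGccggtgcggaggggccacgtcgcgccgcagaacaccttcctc
Kcnh2-202: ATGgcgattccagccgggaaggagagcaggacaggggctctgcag

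The start of Kcnh2-201 lies at chr5:24351239-24351283 and that of Kcnh2-202 at chr5:24329228-24329272, both on the minus strand of GRCm38. Kcnh2-201 held 63.2, 52.8 and 50.4% of the gene's TPM with LGK-974 and 69.5, 43.7 and 70.4% with DMSO. Kcnh2-202 held 22.1, 37.4 and 23.3% with LGK-974 and 3.29, 29.4 and 15.7% with DMSO. Both transcripts were thus estimated in all 6 libraries, and the shares of both overlapped between the groups.

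The other genes with several transcripts showed 1 leading form each. Kcnj3-201 held 54.4 to 81.5% of Kcnj3 TPM, and Kcnj3-202, which has 705 coding bases of which the first 702 are those of Kcnj3-201, held the rest. Kcnip2-209 led in Kcnip2 with 53.0 to 71.3%. Kcnip2-202, which begins with the same 169 coding bases and ends with the same 587, held 4.43, 7.04 and 25.4% with LGK-974 and 0, 0 and 3.91% with DMSO. These shares did not overlap, but in TPM LGK-974 replicate 1 (0.172) lay below DMSO replicate 3 (0.430). Of the 6 estimates, 3 were 0.434 TPM or less without being 0, and the difference was not tested. Shares also did not overlap in Kcnh2-203, which was lower with LGK-974, and in Kcnip2-203 and Gja1-207, which were higher. The share of all transcripts without overlap is not reported here. Gja1-201 held 83.2 to 92.8% of Gja1 TPM, and Gja5-201 held 58.0 to 85.2% of Gja5 TPM.

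**Figure D5:**
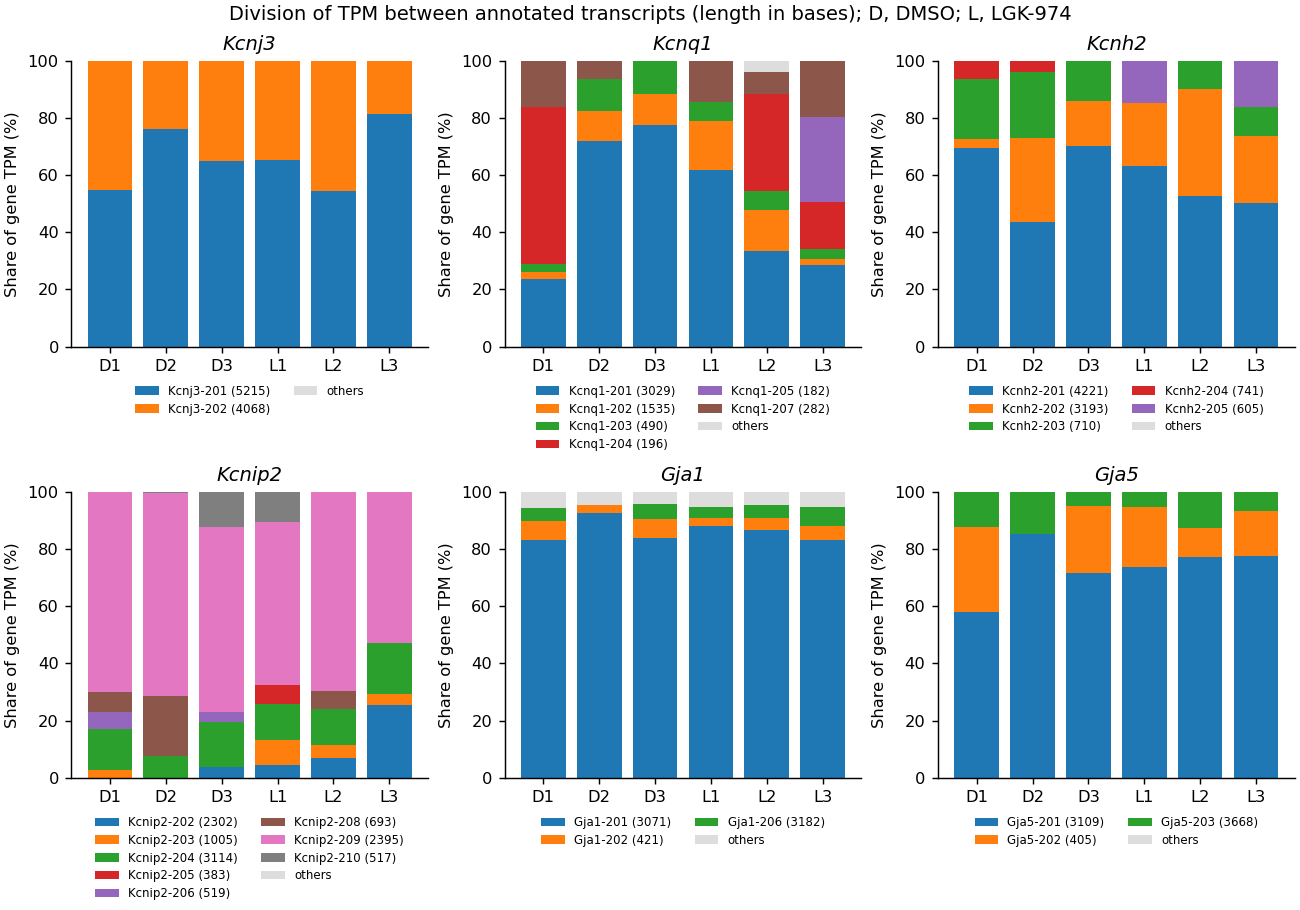
Share of the TPM of a gene held by each annotated transcript (y axis, in %) in the 3 DMSO (D1 to D3) and 3 LGK-974 (L1 to L3) libraries, for the 6 genes with several transcripts, with transcript lengths in bases in the keys. Short Kcnq1 transcripts hold up to 74.0% in 1 library, while Gja1-201 stays between 83.2 and 92.8%.

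Related genes were read from lists of gene symbols. Of 23 tested genes for other potassium channel pores, 20 had a log2 fold change below 0, against 59.5% of all tested genes, and 3 above, with a median of −0.56 beside −0.13. By edgeR 3 of the 23 were lower at an unadjusted p-value under 0.05, against 7.18% of all tested genes, and 0 higher, against 6.26%. In 7 of the 23 the LGK-974 mice lay below the DMSO mice without overlap, against 7.27% of all tested genes, and in 0 above. The 3 most abundant by TPM were Kcnk3, a background potassium channel, Kcnj11, the pore of the ATP-sensitive channel, and Kcnq5. Kcnk3 was at 72.1 ± 10.9 CPM with LGK-974 and 91.1 ± 29.0 CPM with DMSO (SD, n = 3 each, log2 fold change −0.34), and Kcnj11 at 24.3 ± 8.14 and 35.8 ± 6.70 CPM (log2 fold change −0.56). Kcnq5 was at 3.58, 2.33 and 1.44 CPM with LGK-974 and at 13.8, 5.75 and 2.38 CPM with DMSO (log2 fold change −1.58, unadjusted p = 0.0371 by edgeR), with its highest value in DMSO replicate 1. Of the pore genes, 6 were lower at an unadjusted p-value under 0.05 without that library, 1 without LGK-974 replicate 3, and 1 with library sizes not rescaled. Of all 20094 tested genes, 2013, 844 and 2373 were under 0.05 by edgeR in these settings, counting both directions.

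Of 14 tested auxiliary subunits, 11 were below 0 (59.5% of all tested genes) and 3 above, with a median of −0.46. By edgeR 2 were lower at an unadjusted p-value under 0.05 (7.18%) and 1 higher (6.26%), with 0 lower without LGK-974 replicate 1 or 3, and 0 higher on counts scaled from TPM. Of all tested genes, 1886, 844 and 2423 were under 0.05 in these settings, counting both directions. The higher one was Kcnab2, a beta subunit of voltage-gated potassium channels, at 8.86, 9.18 and 10.7 CPM with LGK-974 and 4.60, 6.41 and 3.64 CPM with DMSO. Its groups did not overlap, and its log2 fold change was 0.97 (SE 0.254, unadjusted p = 0.00536 and adjusted p = 0.368 by edgeR). Akap9, which anchors protein kinase A at the slow delayed rectifier, and Abcc9, the regulatory subunit of the ATP-sensitive channel, had log2 fold changes of −0.10 and −0.37 (SE 0.182 and 0.268). Of the other pacemaker channel genes, Hcn2 differed by −0.10 (SE 0.316), and Hcn3 was below 1 CPM in every library.

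Of 10 tested other connexins, 9 were below 0 (59.5% of all tested genes) and 1 above, with a median of −0.96. The most abundant by TPM were Gjc1, the connexin of the nodes and of smooth muscle, Gja3 and Gja4, a connexin of arterial endothelium. Gjc1 was at 15.9, 16.8 and 15.8 CPM with LGK-974 and at 17.9, 18.3 and 19.1 CPM with DMSO. These values did not overlap but differed little (log2 fold change −0.19, SE 0.134, unadjusted p = 0.204 by edgeR). Gja3 and Gja4 had log2 fold changes of −0.35 and −0.06 (SE 0.239 and 0.352).

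The 12 tested partners of connexins at the intercalated disc, where cardiomyocytes are joined, had 6 values below 0 and 6 above, with a median of −0.01 and a range from −0.56 for Ctnna3 to 0.25 for Cav3, which are named for their values. At an unadjusted p-value under 0.05 by edgeR 0 were lower and 0 higher, and no groups were separated in either direction. Ctnna1, an adhesion protein gene, was at 350 ± 24.8 and 345 ± 62.8 CPM (log2 fold change 0.02), and Nedd4, a ubiquitin ligase that acts on the Gja1 protein, at 475 ± 31.0 and 449 ± 86.2 CPM (log2 fold change 0.08), each as mean and SD of 3 mice with LGK-974 and 3 with DMSO. Dsp, which encodes desmoplakin, was at 1362 ± 329 and 1625 ± 334 CPM (SD, n = 3 each, log2 fold change −0.25).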

How the data were processed

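RNA from the infarct area of 3 LGK-974 and 3 DMSO mice was sequenced. The labels name RiboZero, which depletes ribosomal RNA, as well as a TrueSeq RNA Access capture kit, and strand use is not given in the sources used here. The authors assigned reads with Kallisto to transcripts of GRCm38 and deposited, per library and transcript, an estimated count and a TPM value, scaled to effective length. TPM was summed per gene for levels between genes and for ratios.

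Estimated counts were joined to genes with GENCODE vM21 of the same build (98.6% of transcripts), summed and rounded. The 20094 genes that reached 10 counts in 3 or more samples were tested with edgeR 4.0.16 (R 4.3.3) by the quasi-likelihood test, with TMM factors of 0.816 to 1.40, treatment as the single term, and p-values adjusted by Benjamini-Hochberg to a threshold of 0.05. Alternatives used DESeq2 1.42.0, voom of limma 3.58.1, other scalings, filters, gene types and subsets of mice. Counts were also taken less background, the median count per kb of 1780 receptor genes times the length of a gene. That length was all annotated exon bases of the gene, each counted once. Exact permutation tests were two-sided over the 20 splits of the 6 mice. The scripts were tested on simulated data. Intervals between mice rest on n = 3 per group, and counting error is small beside them except for genes with few counts.

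The 9 genes and the other lists were chosen with earlier results of these data known. Named genes are the 9, the 3 of each list with the highest mean TPM, any gene at an adjusted p-value under 0.05, and the 3 genes most correlated with Kcnj3 and Gja1, the channel and the connexin with the highest mean CPM. Of the listed genes, Kcne5 was not matched. Gm26794 and Kcnq1ot1 are not analysed here. Some results of the related lists are not reported here. Data from flow cytometry, echocardiography and cell culture were not used here.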

Additional observations from a re-analysis of the deposited data

How the results depend on the processing

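Kcnj2, Kcnj3, Kcnh2, Kcnd2 and Hcn4 kept a negative log2 fold change in all 17 alternative fits per gene, and Kcnip2 in 16. By edgeR, 0 of the 9 genes had an adjusted p-value under 0.05 in any alternative, while DESeq2 without DMSO replicate 1, added after the data were seen, called 2. The count lower at an unadjusted p-value under 0.05 was 2 with library totals only and 2 on counts scaled from TPM, and 0 to 4 with 1 mouse left out. With 1 mouse left out, 844 to 4641 of all 20094 tested genes passed, counting both directions. The count with all LGK-974 mice below all DMSO mice was 0 with library totals only and on counts scaled from TPM. With 1 mouse left out it was 0 to 3, and the count above was 0 to 1. The share of all genes without overlap in these settings is not reported here. Signs turned for Kcnq1 to −0.0054 with limma-voom, −0.00097 with at least 50 counts in 3 samples, −0.025 on counts less background and −0.094 by DESeq2 without DMSO replicate 1, and its values with 1 mouse left out were −0.078 to 0.28. For Gja1 they turned to −0.11 on counts less background and −0.13 by DESeq2 without DMSO replicate 1 (1 mouse left out, −0.11 to 0.32). Gja5 turned to 0.27 with library totals only, 0.12 without a filter on low counts, 0.44 on counts less background and 0.034 by DESeq2 without DMSO replicate 1 (1 mouse left out, −0.29 to 0.20), and Kcnip2 ranged from −0.75 to 0.11 with 1 mouse left out. Per cardiomyocyte marker, Kcnip2 turned to 0.033 on counts less background (−0.42 to 0.16 with 1 mouse left out), and Gja5 ranged from −0.068 to 0.59 with 1 mouse left out and was −0.091 against endothelial markers. The log2 difference between the groups in the ratio of Gja5 to Gja1 was 0.65 on counts less background. With 1 mouse left out it was −0.57 to 0.19. For the other ratios, the log2 difference with 1 mouse left out ranged from −0.57 to −0.064 for Kcnj3 to Kcnj2. It ranged from 0.028 to 0.40 for Kcnip2 to Kcnd2 and from 0.81 to 1.70 for Kcnq1 to Kcnh2. That of Kcnq1 to Kcnh2 was 0.87 on counts less background (exact permutation test, p = 0.1). The cause was not tested for any of these. The replicate numbers 1 to 3 occur in both groups, and same-numbered mice deviated from their group means with correlations of −0.048, 0.391 and 0.475 (mean 0.273), against −0.518 to 0.10 (mean −0.136) for the 6 pairs with different numbers. Deviations of a gene sum to 0 within each group, so the means of same-numbered and different-numbered pairs depend on each other. These correlations therefore cannot decide whether the mice were paired. No label ties a number to a shared batch, so the numbers were not taken to pair the mice. With the replicate number as a block, 0 of the 9 genes had an edgeR adjusted p-value under 0.05 and 4 were lower at an unadjusted one, over all genes 0 and 3312 passed, and the values of Kcnh2 and Hcn4 were −0.80 and −0.96. With 3 mice per group and the background of DMSO replicate 1, depth limits Hcn4 and Gja5 most.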
